A study of Homo sapiens with 8 samples.

Results

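The genes described here are those whose symbols mark them as subunits of potassium, calcium, sodium, chloride, HCN or TRP channels, of nicotinic, GABA-A or ionotropic glutamate receptors, or of the Na,K and calcium pumps. They were picked by symbol from the annotation of a deposited list of N1-methyladenosine (m1A) positions. Of 4945 genes in the list, 32 matched (0.647%), with 74 of its 9962 positions (0.743%): 19 channel genes with 39 positions, 6 receptor genes with 11, 6 pump genes with 22, and GRINA with 2. GRINA matched by name only, since it encodes a membrane protein that is not a receptor subunit.

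The study silenced TRMT6 and mapped m1A by immunoprecipitation with an m1A antibody and sequencing. The tested cells were human neuroblastoma cells transfected with small interfering RNA against TRMT6 (siTRMT6), and the others were labelled control. How the control cells were treated, and how long after transfection cells were taken, is not stated in the labels. Each condition had 2 m1A libraries, called siTRMT6 1, siTRMT6 2, control 1 and control 2 here after the numbers in the count columns. The same numbers were carried by input libraries, which are not analysed here, so a change of m1A could not be told apart from a change of transcript level. Sample titles give the cell line as SK-N-BE, while the source and cell line entries give SK-N-AS. The labels do not say whether the libraries of a condition came from separate cultures, so a p-value below is set against a spread that may be technical. In bulk RNA, fewer cells of a type and less RNA per cell cannot be told apart.

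Ion channels are membrane pores that open for chosen ions, ligand-gated receptors are channels opened by a transmitter, and the pumps spend ATP to build the gradients that both kinds of channel run down. Neuroblastoma arises from the sympathetic nerve lineage, whose cells are electrically excitable and carry nicotinic receptors. m1A is a methyl group on the base-pairing edge of adenosine. TRMT6 is the partner of the catalytic subunit TRMT61A in the nuclear and cytoplasmic tRNA methylase, which also modifies tRNA-like stems of some other RNAs.

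Because m1A can only sit on an adenosine, the base at the listed positions was read wherever a RefSeq window around a gene start (build GRCh38.p14) covered one. The base was A on the forward strand of the genome at all 554 positions so covered. On transcripts of the forward strand (170 positions) the transcript therefore held A, and on transcripts of the reverse strand (384 positions) it held T (U in the RNA) at the listed base. Of the 74 ion transport positions, 4 were covered, and all 4 belonged to reverse-strand genes. Their surroundings, written 5' to 3' in the sense of the transcript with the listed base in capitals, show this directly.
CACNA2D2, chr3:50365127-50365147, reverse strand: ctctttgtggTggccgagaag
ATP2B1, chr12:89708796-89708816, reverse strand: ccccggctggTggacgccgag
CHRNB4, chr15:78641161-78641174, reverse strand: acagcggagcTcgc
KCNH4, chr17:42181267-42181287, reverse strand: gagacacgcgTgggccgctcc
The CHRNB4 window ends 3 bases after the listed base. In all, 19 of the 74 positions (25.7%) and 14 of the 32 genes lay on reverse-strand transcripts, against 26.6% of all listed position and gene pairs. The base of the other 15 reverse-strand positions was not read. GTTCNANNC is the motif in which tRNA carries the m1A placed by TRMT6 and TRMT61A. Read on the forward strand with its A on the listed base, it stood at none of the 536 positions with enough flanking sequence. Anywhere in the window and on either strand, 7.49% of all windows, each 300 nt long, held it. These are unlike measures, and no depletion of the motif can be read from them.

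The libraries held 40771 (siTRMT6 1), 13812 (siTRMT6 2), 8655 (control 1) and 46007 (control 2) reads at listed positions, and the 32 genes had 281, 76, 48 and 357 of these. This is 0.689% (95% Wilson interval 0.613 to 0.774) of the listed reads in siTRMT6 1, 0.550% (0.440 to 0.688) in siTRMT6 2, 0.555% (0.419 to 0.735) in control 1 and 0.776% (0.700 to 0.860) in control 2. Control 2 stood highest, with an interval that overlapped those of siTRMT6 1 and control 1 but not that of siTRMT6 2. These intervals, like all below, cover counting error only. Each of the 74 positions had reads in exactly 1 library, as did 98.6% of all positions, so no base of these genes was seen in both conditions. A position carried 5 to 30 reads with a median of 8, against a median of 9 over all positions. The list had been filtered before deposit (its largest p is 0.0478), so a 0 may mean no reads or reads that were not listed. TRMT6 itself had no position in the list. Of 18 adrenergic neuroblastoma markers 14 had positions, and of 16 mesenchymal markers 6 had. MYCN, an oncogene amplified in some neuroblastoma lines, had 48 and 59 reads in the siTRMT6 libraries and 50 and 53 in the controls.

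Of the 241 RefSeq protein-coding genes that match the choice, 13.3% had a position, against 20.7% of all RefSeq protein-coding genes. The groups differed in how many members were listed: 3 of 8 Na,K pump genes, 3 of 7 calcium pump genes, 2 of 4 HCN genes, 2 of 9 chloride channel genes, 3 of 16 nicotinic, 3 of 18 glutamate receptor, 4 of 26 calcium channel, 2 of 14 sodium channel and 9 of 95 potassium channel genes. None of the 20 TRP channel genes and none of the 19 GABA-A receptor genes was listed. These shares are a description, and the part of transcript level in them was not tested.

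**Figure D1:**
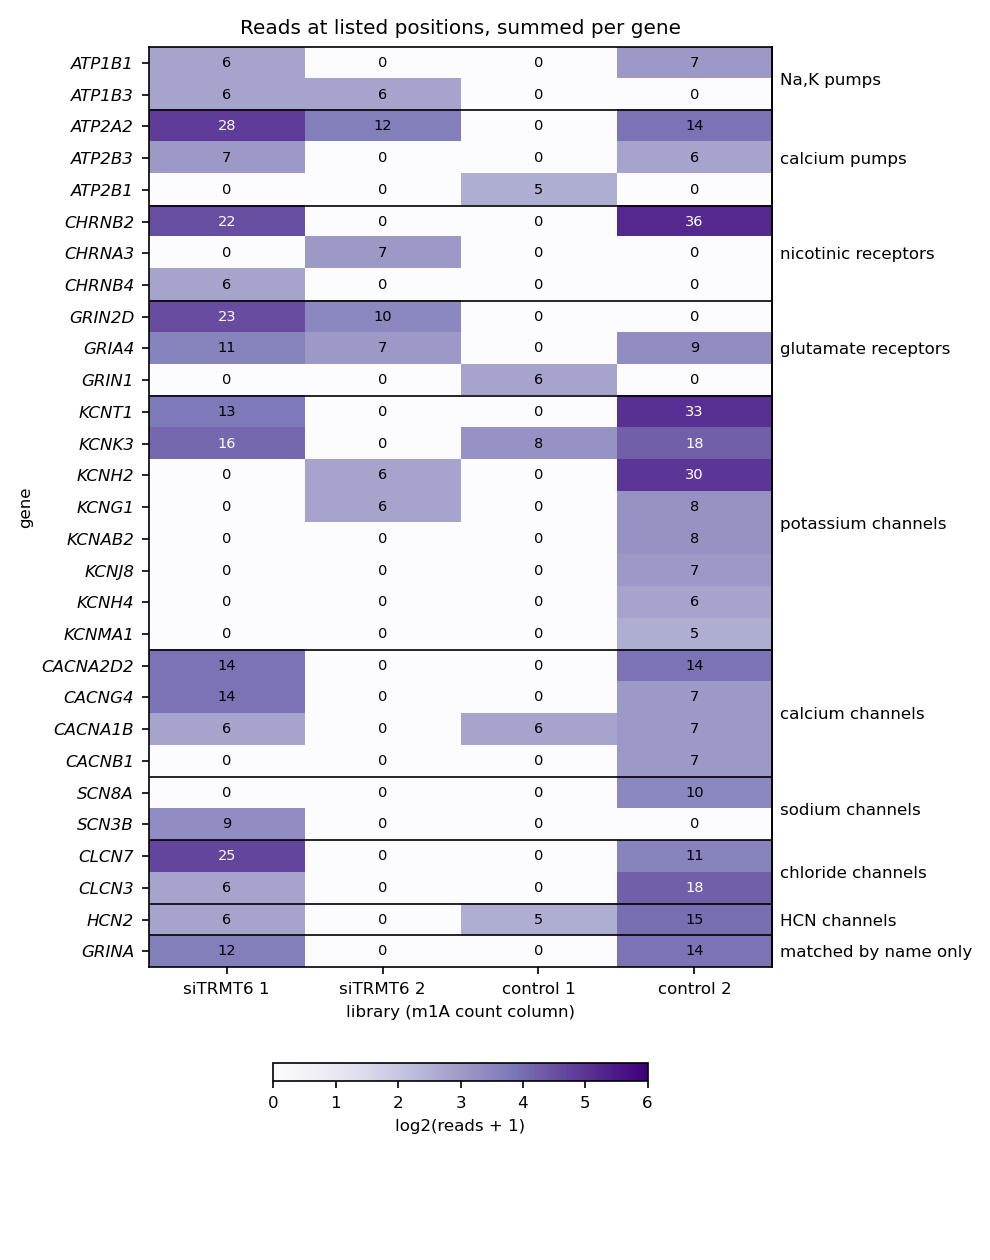
Reads at listed positions summed per gene (rows, in groups) in the 4 libraries (columns); numbers are reads and the shade is log2(reads + 1). Each potassium channel gene shown had reads in control 2.

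The Na,K pump keeps sodium low inside the cell. Its beta subunits, which help the pump to fold and reach the membrane, were listed at low counts. ATP1B1 had 6 reads in siTRMT6 1 at 169124950 and 7 in control 2 at 169124989 of chromosome 1, 39 nt apart in coding sequence. ATP1B3 had 6 reads in siTRMT6 2 at 141876874 (5' UTR or coding, depending on the transcript) and 6 in siTRMT6 1 at 141925914 (3' UTR) of chromosome 3, and none in the controls. RefSeq holds pseudogenes of both (ATP1B1P1 and ATP1B3P1), and how reads that map to several places were treated is not stated in the labels.

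The calcium pumps clear calcium from the cytosol. ATP2A2, the pump of the endoplasmic reticulum, had 28 and 12 reads in the siTRMT6 libraries and 0 and 14 in the controls, a summed log2 of 1.52. Every summed log2 here is the ratio of siTRMT6 over control reads after division by each condition's listed reads. Near its start, at 110281878 and 110281890 of chromosome 12, siTRMT6 2 had 12 reads and siTRMT6 1 had 14, 12 nt apart in coding sequence, with none in the controls. Against a floor of 3 counts over both controls this is at least 8.68-fold higher, if the listed 0 means no reads. The bound is taken where only siTRMT6 reads were listed, so no support is drawn from it. With positions joined within 200 nt, 14.4% of all regions of more than 1 position held both siTRMT6 libraries and no control. The other 14 reads of siTRMT6 1 lay in coding sequence at 110346306. Its control reads, 9 at 110327888 and 5 at 110334071, lay further along the coding sequence and came from control 2 alone. Of the plasma membrane pumps, ATP2B3 had 7 reads in siTRMT6 1 and 6 in control 2 at bases 38 nt apart, and ATP2B1 had 5 reads in control 1 in its 5' UTR. As a group the calcium pumps had 47 siTRMT6 and 25 control reads, a log2 of 0.91 (counting interval 0.22 to 1.61). That value counts reads and leaves out the spread between libraries.

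Nicotinic receptors carry fast transmission in sympathetic ganglia. CHRNB2, a beta subunit of neuronal receptors, had 22 and 0 reads in the siTRMT6 libraries and 0 and 36 in the controls, all on chromosome 1. The siTRMT6 1 reads, 22 in the 3' UTR at 154579110, lay 2785 nt beyond 22 control 2 reads in the 3' UTR at 154576325, and control 2 had 14 more in coding sequence at 154571364. The siTRMT6 1 position was also listed for an antisense transcript. Each condition therefore rested on 1 library. CHRNA3 and CHRNB4, which encode the subunits of the ganglionic receptor and are neighbours on chromosome 15, had siTRMT6 reads only: 7 in siTRMT6 2 at 78602170 (coding) and 6 in siTRMT6 1 at 78641164 (5' UTR). Both counts were below the median per position of their library, 8 reads in siTRMT6 2 and 9 in siTRMT6 1. CHRNA3 and CHRNB4 lie on the reverse strand, and CHRNB2 alone had a summed log2 of -0.71. The 3 genes had 35 siTRMT6 and 36 control reads, a log2 of -0.039 (-0.70 to 0.63).

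The ionotropic glutamate receptors had 51 reads in the siTRMT6 libraries and 15 in the controls. GRIN2D, an NMDA receptor subunit made early in development, gave most of the difference. It had 10 reads in siTRMT6 2 at 48398388 (5' UTR) and 23 in siTRMT6 1 at 48398468 of chromosome 19, 80 nt downstream in coding sequence, and none in the controls. It was thus listed in both siTRMT6 libraries and neither control. On the floor of 3 control counts this is at least 11.02-fold higher, if the listed 0 means no reads. As for ATP2A2, the bound is taken where only siTRMT6 reads were listed, so no support is drawn from it. GRIA4, an AMPA receptor subunit, had 11 and 7 reads in the siTRMT6 libraries and 0 and 9 in the controls. All 3 of its positions lay within 45 nt of chromosome 11, where siTRMT6 1 (11 reads at 105611007) and control 2 (9 at 105611004) were 3 nt apart. GRIN1, the NMDA subunit required in every such receptor, had 6 reads in control 1 only. The group's log2 was 1.77 (0.95 to 2.59). Its share of listed reads was 0.0834% in siTRMT6 1 and 0.123% in siTRMT6 2, against 0.0693% in control 1 and 0.0196% in control 2. Control 1 lay close to siTRMT6 1, and without control 2 the log2 was 0.43.

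Potassium channels set the resting potential and end action potentials. They had 41 reads in the siTRMT6 libraries and 128 in the controls, a log2 of -1.64 (-2.15 to -1.14), and 12 of their 16 positions were control positions. This rested on 1 library: the genes took 0.0711% of the listed reads in siTRMT6 1 and 0.0869% in siTRMT6 2, against 0.0924% in control 1 and 0.261% in control 2. Control 1 lay with the siTRMT6 libraries, and without control 2 the log2 was -0.30. All 9 genes had a position in control 2, which held 66.9% of all listed genes. KCNT1, a channel opened by sodium inside the cell, had 13 reads in siTRMT6 1 and 33 in control 2 over 4 positions of chromosome 9. The siTRMT6 position, 135772850, lay in coding sequence between a coding position of control 2 (11 reads at 135765140) and a 3' UTR position of control 2 (14 reads at 135792885). KCNK3, an acid-sensitive leak channel, had 16 and 0 reads in the siTRMT6 libraries and 8 and 18 in the controls. In its 3' UTR, siTRMT6 1 had 16 reads at 26729777 and control 2 had 18 at 26731042 of chromosome 2, 1265 nt apart, and the 8 control 1 reads lay near the start at 26693140 (5' UTR or coding, depending on the transcript).

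KCNH2, whose channel repolarises heart and nerve cells, held the highest count of the 74 positions. On chromosome 7, siTRMT6 2 had 6 reads in the 5' UTR at 150978230, and control 2 had 30 in coding sequence at 150951730. The authors' deposited table gave the 5' UTR position a log2 fold change of 3.40 (adjusted p = 0.0376) and the coding position one of -6.09 (adjusted p = 3.63e-07). The same mRNA was thus listed in both directions. KCNG1, a modulatory subunit that forms no channel by itself, had 6 reads in siTRMT6 2 and 8 in control 2 at coding bases 2 nt apart. KCNAB2 (a cytoplasmic beta subunit, 8 reads), KCNJ8 (the pore of an ATP-sensitive channel, 7), KCNH4 (6) and KCNMA1 (the calcium-activated BK channel, 5) had reads in control 2 and in no other library. KCNH2, KCNG1, KCNJ8, KCNH4 and KCNMA1 lie on the reverse strand, and the KCNJ8 position was also listed for an antisense transcript. On forward-strand transcripts alone the group's log2 was -1.21.

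**Figure D2:**
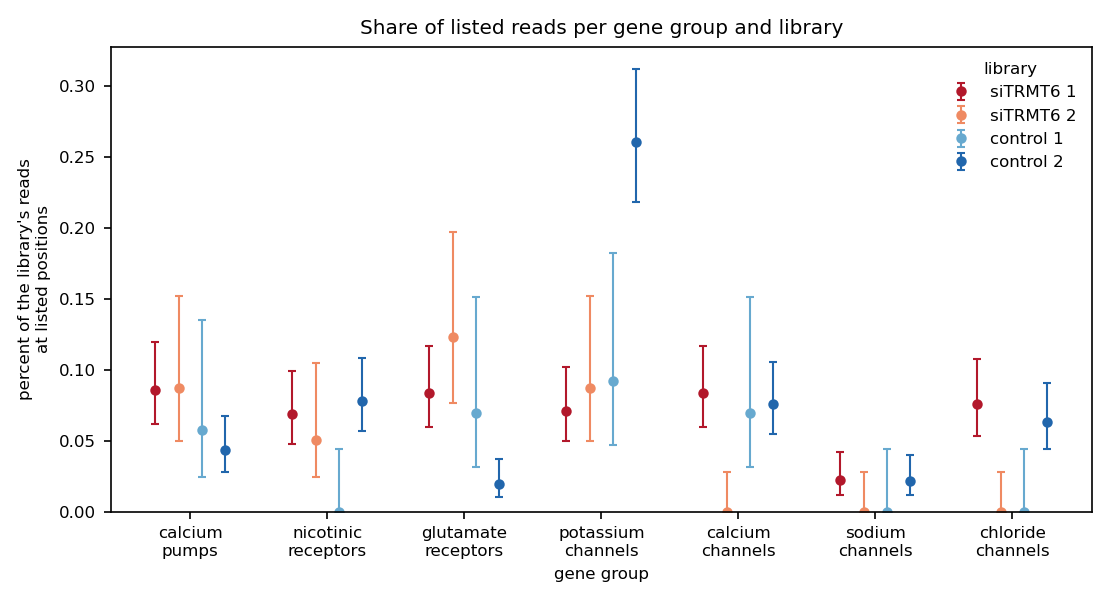
Share of each library's listed reads that fell in each gene group (points, percent) with 95% Wilson intervals for counting error (bars), for 7 of the groups, in siTRMT6 1, siTRMT6 2, control 1 and control 2. Control 2 stands apart from the other 3 libraries for potassium channels (0.261%).

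Voltage-gated calcium channels admit the calcium that triggers transmitter release, and their genes had 34 siTRMT6 and 41 control reads (log2 -0.27, interval -0.92 to 0.38). CACNA1B, the pore of the N-type channel of nerve endings, had 3 positions in 3 libraries within 25 nt of coding sequence on chromosome 9: 6 reads in siTRMT6 1 at 138023738, between 6 in control 1 at 138023723 and 7 in control 2 at 138023747. CACNA2D2, an auxiliary subunit that brings the pore to the surface, had 14 reads in siTRMT6 1 and 14 in control 2, 45 nt apart in coding sequence. CACNG4, which is named as a calcium channel subunit and is known as an auxiliary subunit of AMPA receptors, had 14 reads in siTRMT6 1 over 2 positions and 7 in control 2. A siTRMT6 1 position (66965125) and the control 2 position (67018234) lay 53109 nt apart on chromosome 17 and 52 nt apart in the spliced transcript. CACNB1, a cytoplasmic subunit, had 7 reads in control 2 only. CACNA2D2 and CACNB1 lie on the reverse strand, and on forward-strand transcripts alone the group's log2 was 0.0021.

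Of the remaining channels, none had a position in siTRMT6 2, which held only 25.1% of all listed genes. The calcium channels had none there either. CLCN7, a chloride-proton exchanger of lysosomes, had 25 reads in siTRMT6 1 and 11 in control 2 on chromosome 16. In its 3' UTR the libraries had 11 reads each, at 1446090 (siTRMT6 1) and 1446160 (control 2), and the other 14 siTRMT6 1 reads lay in coding sequence at 1460427. Both 3' UTR positions were also listed for an antisense transcript. CLCN3, an endosomal exchanger with a pseudogene in RefSeq, had 6 reads in siTRMT6 1 and 18 in control 2 over 4 positions. The chloride group's log2 was 0.098 (-0.62 to 0.82), and -1.58 on forward-strand transcripts alone, which leaves CLCN3 only. HCN2, a channel that opens on hyperpolarisation and paces rhythmic firing, had 6 and 0 reads in the siTRMT6 libraries and 5 and 15 in the controls. Its first 3 positions lay within 26 nt of coding sequence on chromosome 19 (6 reads in siTRMT6 1 at 590498, 5 in control 1 at 590489 and 5 in control 2 at 590514) and were also listed for an antisense transcript. The other 10 control 2 reads lay at 610368. Sodium channels start the action potential. Of these, SCN3B (a beta subunit) had 9 reads in siTRMT6 1 and SCN8A (a pore subunit) had 10 in control 2. The group log2 was -0.15 (-1.41 to 1.11). SCN3B lies on the reverse strand, and on forward-strand transcripts the group had control 2 reads only. GRINA had 12 reads in siTRMT6 1 and 14 in control 2, at coding bases 24 nt apart in the transcript.

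Along the transcript, the whole-list shares of coding sequence and of both UTRs lay inside the counting intervals of the ion transport genes. Coding sequence held 48 of the 74 (64.9%, interval 53.5 to 74.8), the 3' UTR 16 (21.6%, 13.8 to 32.3) and the 5' UTR 10 (13.5%, 7.51 to 23.1). Over all listed position and gene pairs these shares were 60.9%, 21.5% and 11.7%. Non-coding RNA held 0 of the 74 positions (interval up to 4.94%), against 5.89% of the whole list. The choice by symbol can also match non-coding RNAs, but it names families of protein-coding genes, and all 32 genes listed were protein-coding in RefSeq. No depletion is therefore read from this 0. By class, coding sequence held 61.5% of channel, 54.5% of receptor and 72.7% of pump positions. The 3' UTR held 28.2%, 18.2% and 13.6% and the 5' UTR 10.3%, 27.3% and 13.6% of them. The wide intervals of the classes (for receptors in the 5' UTR, 9.75 to 56.6%) overlapped. Coding sequence held 20 siTRMT6 and 28 control positions (41.7% siTRMT6, against 49.3% in the whole list), the 3' UTR 9 and 7 (56.2%, against 49.5%), and the 5' UTR 5 and 5 (50%, against 52.1%). In the 5' UTR, receptors had 3 siTRMT6 and 0 control positions (GRIN2D, GRIA4 and CHRNB4), channels 1 and 3, and pumps 1 and 2.

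**Figure D3:**
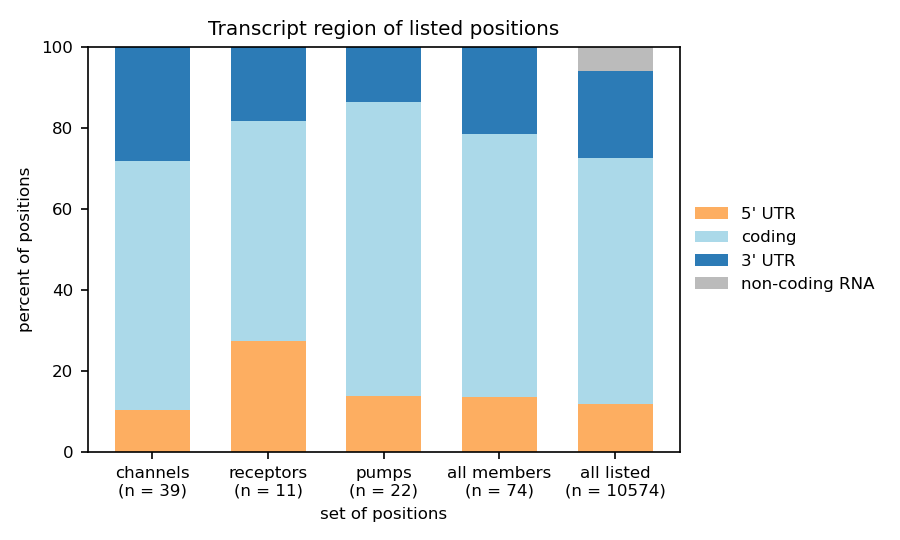
Percent of listed positions in the 5' UTR, coding sequence, 3' UTR and non-coding RNA, for channel, receptor and pump genes, all 74 positions and the whole list. Coding sequence is the largest part of each bar, at 54.5% to 72.7%.

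Positions of the same gene often sat close together and then came from different libraries, as in the whole list. Of 15 neighbouring pairs within 50 nt, in 10 genes, none came from the same library and 3 shared their condition. In the whole list, of 1597 such pairs, 0 came from the same library and 23.0% shared their condition. Of 24 neighbouring pairs more than 200 nt apart on the genome, 7 came from the same library, against 35.1% of 3543 such pairs in the whole list. Joining positions of a gene within 200 nt gave 56 regions, 14 of them with more than 1 position. Both conditions were present in 11 regions, 19.6% of all (11.3 to 31.8), against 17.3% for the whole list, and 29.7% of the regions with control reads, against 28.8%. In these 11 regions the summed log2 had a median of -0.22, with 4 above 0 and 7 below. A difference of at least 2-fold was seen in 3 of them, among these CACNA1B (-1.11) and GRIA4 (1.002). The other 3 joined regions, among them those of GRIN2D and ATP2A2, held both siTRMT6 libraries and no control reads. No region of these genes held both controls and no siTRMT6 reads. Over the whole list, of 1841 joined regions with more than 1 position, 265 (14.4%) held both siTRMT6 libraries and no control, and 117 (6.36%) both controls and no siTRMT6 library. When distance was measured along the transcript, 13 of 54 regions (24.1%) held both conditions. That share was not counted over the whole list, so it cannot be called particular to these genes.

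**Figure D4:**
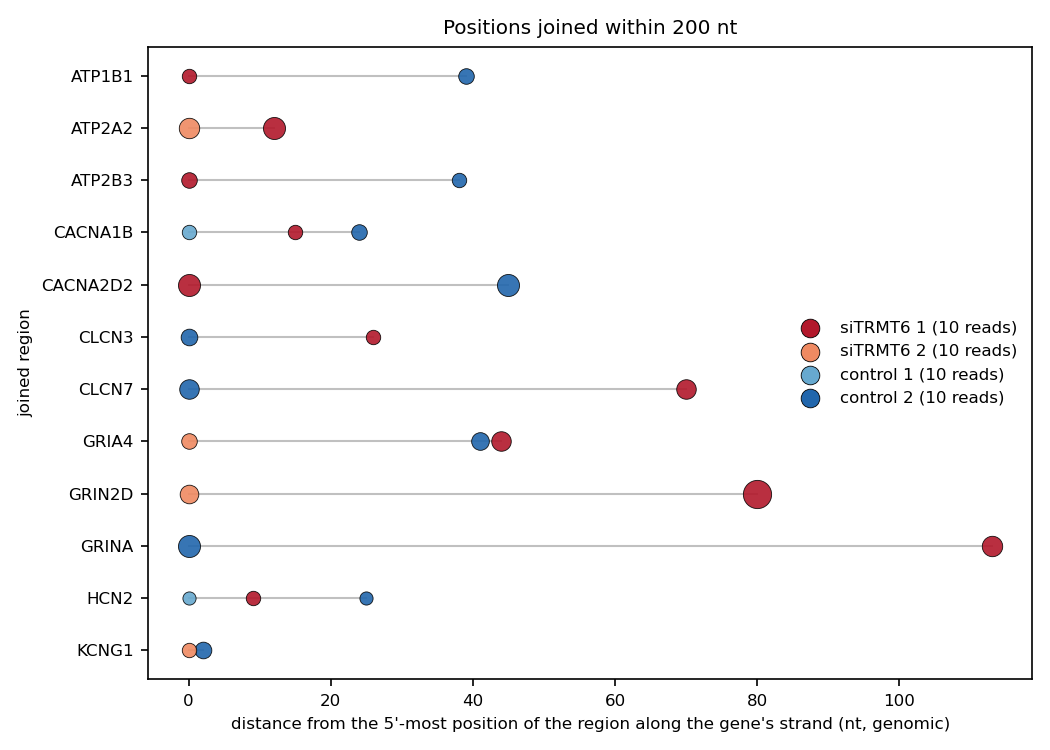
Regions with more than 1 position within 200 nt, of which 12 are shown. Each circle is a position, placed by its distance from the first one in nt and coloured by library, with an area in proportion to its reads. In 10 of them siTRMT6 and control libraries lie side by side, and the ATP2A2 and GRIN2D regions hold siTRMT6 1 and siTRMT6 2 only.

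None of the ion transport genes that could be tested with libraries as replicates passed the threshold. In the authors' deposited table all 74 positions passed an adjusted p of 0.05, 34 higher and 40 lower in siTRMT6, against backgrounds of 100% called, 49.6% higher and 50.4% lower over all positions (9961, 4937 and 5024 of 9962). Each of those 74 calls rests on the reads of 1 library. In edgeR's quasi-likelihood test over positions, none of the 74 passed the filter on low counts, which kept 34 of 9962 positions and called 64.7% of those kept. With reads summed per gene, 6 of the 32 genes were among the 975 tested. None of the 6 was called at a Benjamini-Hochberg adjusted p of 0.05, nor was any of the 975 (0.0%; 128 at an unadjusted p under 0.05, while DESeq2 called 1 of 975, which is not among these genes, and had 40). The 6 genes passed the filter because of their reads, so they do not speak for the others. Their median log2 was -0.31, against 0.27 over all genes tested.

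GRIN2D had the smallest unadjusted p of the 6 genes (0.0351) and an edgeR adjusted p of 0.379. The edgeR log2 of ATP2A2 was 1.92 with a standard error of 2.37 (adjusted p = 0.9997). For CHRNB2 the log2 was -0.58, for KCNH2 -1.31 and for KCNK3 -0.85, with standard errors of 3.04, 2.98 and 2.25. In each of these 4 genes the standard error exceeded the difference. With positions joined within 200 nt, edgeR tested 511 regions and called none (0.0%; 129 at an unadjusted p under 0.05). The GRIN2D region, with reads in both siTRMT6 libraries, had an adjusted p of 0.0582. It entered the test through those reads, so no support is drawn from it.

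Companion genes, taken from lists of channel partners and related transporters, were listed at 20.4% for other channels, 30.4% for calcium release and sensing, 25.0% for anchors and partners and 21.1% for other P-type ATPases. Of 54 genes of other channels 11 had positions, with 89 reads in siTRMT6 libraries and 97 in controls. LRRC8A, the essential subunit of the volume-regulated anion channel, had 30 reads in siTRMT6 1 and 16 in control 2, and VDAC1, a pore of the outer mitochondrial membrane, had 13 and 14 in the same libraries. Of 23 genes of calcium release, entry and sensing 7 had positions. CALM3, which encodes calmodulin, had 60 and 63 reads in the siTRMT6 libraries and 23 and 57 in the controls. Of 36 anchors and partners 9 had positions. SHANK1, a scaffold of excitatory synapses, had 30 reads in siTRMT6 1 only, and ANK2, an ankyrin that anchors channels and the Na,K pump, had 7 in siTRMT6 1 against 12 and 8 in the controls. Of 19 other P-type ATPases 4 had positions. ATP11A, a lipid flippase, had 8 reads in siTRMT6 1 and 12 in control 2, and ATP13A1, a transporter of the endoplasmic reticulum, had 19 in siTRMT6 1 only. None of 10 metabotropic glutamate and GABA receptor genes was listed. The summed log2 was -0.12 for other channels, 0.084 for calcium release and sensing, -0.17 for anchors and 1.20 for other P-type ATPases. That of the other P-type ATPases rested on 1 library per condition, with 39 reads in siTRMT6 1 and 17 in control 2. In edgeR, 3 of these companion genes could be tested and none was called.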

How the data were processed

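Polyadenylated RNA was fragmented and immunoprecipitated with an m1A antibody, per the labels' protocols. FastQC 0.11.3, STAR and the build hg38 are named in the submitters' processing notes. The caller of positions, any subtraction of input and the treatment of reads with several mapping places are not stated in the labels. The deposited table gave, per the file headers, each position with its annotation, counts in 4 columns, and the authors' log2 fold change with raw and adjusted p-value. The columns were taken as m1A counts because the table lists m1A sites. The authors' log2 fold change and p-value were used only where named.

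Positions are printed counting from 1. A position given to several transcripts took its most frequent region, and 3 ties went to the UTR. Groups were compared by summed reads over the reads at listed positions. Shares carry 95% Wilson intervals, while the interval of a group's log2 is symmetric about it and taken from the read counts. Counts per position and per gene were tested with edgeR 4.0.16 (R 4.3.3, TMM, filterByExpr with a minimum count of 10, quasi-likelihood test, Benjamini-Hochberg adjustment). The standard error is the log2 value over the root of F. DESeq2 1.42.0 was an alternative. The steps were also run on simulated counts, which had far less spread between libraries than these data (common dispersion 2.59 over genes). The simulation therefore does not show how the steps perform here. Reads carried no molecular identifiers, so intervals and floors cover counting error only.

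The rule for members reads symbols only, but it, the lists and the tests were chosen with earlier results of these data known. Named with values were the 15 genes with the most reads, the deepest gene of each group, all genes tested by edgeR, all with reads in 3 or 4 libraries, all pumps, and the 2 deepest genes of each companion list. Some genes that this rule names are not reported here. Leaving out reverse-strand transcripts and joining along the transcript were added after seeing the data.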

Additional observations from a re-analysis of the deposited data

How the results depend on the processing

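Of 126 alternatives, 99 kept their value within the counting interval or within 1.5 times and 27 did not. The 22 position calls of edgeR, none in the ion transport genes, fell to 0 with DESeq2 (9 at an unadjusted p under 0.05), with no filter, with the replicate block, with joined positions, and in all 4 fits without a library (0 to 0). DESeq2 called 1 gene where edgeR called 0. The labels do not say whether libraries of the same number belong together. The differences between numbers had a correlation of -0.0993 between conditions over 975 genes. This cannot decide the question, since 98.6% of positions had reads in 1 library only. The replicate block left 0 of 975 genes called. Equal library sizes gave 29 position calls, 10 higher and 19 lower, against 13 higher and 9 lower with TMM. The filter then kept 37 positions against 34 and 1106 genes against 975, so the 2 settings cover different sets. With equal library sizes the median log2 of the genes tested was 0.056, against 0.27 with TMM and 0.11 with DESeq2's size factors. The sign of each member gene tested in all 3 was kept.

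Leaving out each library in turn gave log2 values from -1.80 to -0.30 for potassium channels, 0.43 to 2.26 for glutamate receptors and -0.43 to 0.24 for all 32 genes (-0.18 with all libraries), each end at 0.24, 0.43 or -0.30 being that without control 2. It left 40 to 68 positions, 25 to 31 genes and a share of regions with both conditions of 6.98% to 20.8%. At an adjusted p below 0.01 in the authors' deposited table, 41 positions in 17 genes remained. The share of all listed positions below 0.01 was not counted, so nothing is read from that number. The log2 was then -0.71 for nicotinic receptors (CHRNB2 alone) and 2.15 for calcium pumps (ATP2A2 alone). That cut used p-values from these same counts, so no support is drawn from these values. On forward-strand transcripts only, 18 genes and 5 positions in a 5' UTR remained, with a log2 of -1.58 for chloride channels, -1.73 for HCN channels and -0.71 for nicotinic receptors. Over whole genes, 53.1% of the ion transport genes held both conditions, and the share over all listed genes was not counted. The cause of these shifts was not tested, and leaving out libraries or positions also lowers their number. With 5 to 30 reads per position in 1 library, a difference at a given base cannot be set against replicate spread.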

Other observations

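Listed positions were spread unequally over the strands, and differently so within the RefSeq windows. Over the whole list, 7757 position and gene pairs lay on forward-strand transcripts and 2817 on reverse-strand transcripts. Within the RefSeq windows around gene starts the numbers were 170 and 384, counted as positions and not as pairs. A window need not be that of the listed gene, as for CACNA2D2, whose position lay in the window of another gene. The 32 ion transport genes held 583 reads on forward-strand and 179 on reverse-strand transcripts. All covered positions, on transcripts of either strand, had A on the forward strand of the genome.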
